A study of Mus musculus with 22 samples.

Results

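The 74 genes described here encode proteins of the mitochondrial ribosome. They are all genes of the array whose symbol begins with Mrpl (large subunit, 47 genes) or Mrps (small subunit, 27 genes) followed by a digit, out of 18524 named genes, and each was read by its brightest probe. The choice used the symbol and the mean level and made no use of the treatments.

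The arrays read the transcripts of the gastrocnemius, a calf muscle, in 22 C57BL/6N male mice of 8 to 12 weeks. In all of them hindlimb ischemia had been induced by removing the femoral artery, and all received an LNA-oligonucleotide (a short nucleic acid with locked sugars) into the peritoneum at 12 mg/kg on day 5, with tissue collected on day 7. In the ANTI-210 group (11 mice) the oligonucleotide was complementary to miR-210, a microRNA induced by low oxygen, and in the SCR group (11 mice) it was a scrambled sequence. The sample titles name both groups non-diabetic, no transgene was carried, and there was no muscle without ischemia or without injection among the arrays. The comparison asks how the muscle transcriptome differs when miR-210 is blocked during recovery. The mature microRNA is shown to identify the molecule that was blocked, with its seed (bases 2 to 8) in capitals (RefSeq, GRCm38.p6, chr7:141221407-141221428, minus strand).
mmu-miR-210-3p: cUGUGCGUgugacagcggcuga

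Mitochondria keep their own ribosomes, which translate the few membrane proteins of the respiratory chain and ATP synthase that mitochondrial DNA encodes. The ribosomal RNAs come from mitochondrial DNA, but every protein of these ribosomes is encoded in the nucleus, made in the cytosol and imported. Many of these proteins descend from bacterial ribosomal proteins and sit near the decoding and peptidyl transferase centres, while others are found only in mitochondria and cover the outside of the particle. Of the 74 genes, 45 encode a protein with a bacterial counterpart and 29 a mitochondria-specific one. Symbols follow the historical naming, and the products of Mrps30 and Mrps18a have been placed in the large subunit in structures of the mammalian particle. They are counted here with the small subunit, as the symbol has it.

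Values are log2 intensities after quantile normalization, on which a difference of 1 is a doubling. There was 1 array per mouse, and n counts mice. Correlations between arrays lay between 0.947 and 0.997 with 0 identical pairs, and the first principal component took up 63.6% of the variation. Probes with a mean under 6, 62.6% of all, are called near the floor, where a change in RNA moves the intensity little. Of the ribosomal genes 69 lay above that level, and Mrpl19, Mrpl21, Mrpl32, Mrpl45 and Mrps14 lay below it. Levels of different probes are not comparable with each other, so each gene is described against itself.

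In muscles of this series the genes of both subunits moved as a block from mouse to mouse. When each gene was set to 0 at its own mean over the 22 mice and the genes were averaged within a mouse, the 11 ANTI-210 mice ran from -0.37 to 0.20 and the 11 SCR mice from -0.39 to 0.19. The lowest means were those of SCR 6 (-0.39), ANTI-210 11 (-0.37), SCR 7 (-0.35) and ANTI-210 3 (-0.34). ANTI-210 2 (-0.19), ANTI-210 1 (-0.11) and SCR 8 (-0.09) came next, and the highest was ANTI-210 7 (0.20). Low mice were therefore found in both groups, 2 in each among the 4 lowest, and the highest and lowest mouse differed 1.51-fold in the mean.

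**Figure D1:**
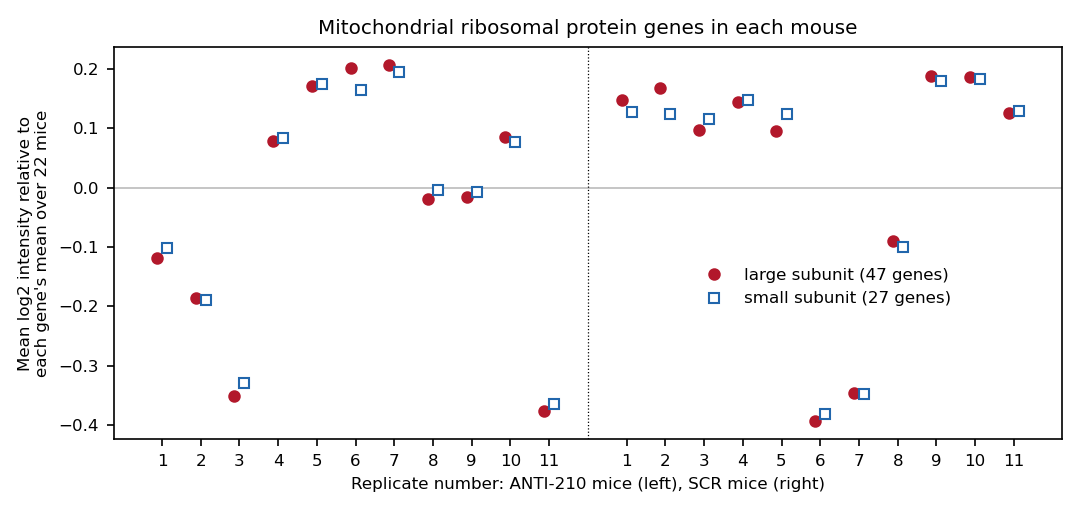
Mean log2 intensity of the large subunit genes (filled circles, 47 genes) and small subunit genes (open squares, 27 genes) in each of 11 ANTI-210 mice (left) and 11 SCR mice (right), each gene relative to its mean over the 22 mice. Both symbols lie close together in every mouse, and ANTI-210 3, ANTI-210 11, SCR 6 and SCR 7 lie lowest.

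The same mice were low for most genes. In ANTI-210 3, 73 of the 74 genes lay below their own mean, in ANTI-210 2 and ANTI-210 11 it was 69 each, and in SCR 6 and SCR 7 it was 67 each. At the other end, 5 genes lay below their mean in ANTI-210 7 and 6 in SCR 9. For 35 genes, 20 of the large and 15 of the small subunit, exactly ANTI-210 3, ANTI-210 11, SCR 6 and SCR 7 were the 4 lowest mice, and for 58 genes at least 3 of their 4 lowest mice were among these.

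Large and small subunit were almost inseparable. The per-mouse mean of the large subunit genes correlated with that of the small subunit genes at Pearson r = 0.997 and Spearman rho = 0.977 over 22 mice, at r = 0.995 without the 2 mice farthest from the median and at r = 0.989 without the 4 lowest mice (an alternative added after seeing the data). These are descriptions, since both means come from the same arrays. The standard deviation over mice was 0.21 for the large and 0.20 for the small subunit, but only 0.02 for the difference between them, which ran from -0.03 to 0.04. This difference, large minus small, was -0.0018 ± 0.016 in ANTI-210 mice and 0.0018 ± 0.019 in SCR mice (SD, n = 11 each), so the balance of the subunits lay well inside the spread between mice in both groups. Among the 69 genes above the floor, pairs within the large subunit had a median r of 0.71 (903 pairs), pairs within the small subunit 0.72 (325 pairs) and pairs across the subunits 0.72 (1118 pairs). A gene was thus as close to genes of the other subunit as to those of its own. Of all 2346 pairs 77.3% had r over 0.5, against 29.0% of the pairs of these genes with 8759 other genes above the floor.

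Mrpl27 followed the rest most closely (r = 0.98 with the mean of the other 73 genes). It encodes bL27m, a protein near the peptidyl transferase centre. Its lowest, median and highest values were 10.66, 11.02 and 11.27 in ANTI-210 mice and 10.60, 11.12 and 11.27 in SCR mice. Mrps28, a small subunit gene whose product has a bacterial counterpart, had r = 0.97 and lay at 10.28, 11.11 and 11.73 in ANTI-210 mice and at 10.38, 11.49 and 11.69 in SCR mice. Over all 74 genes the median r with the other members was 0.87 for the large and 0.86 for the small subunit, and 58 genes (37 large, 21 small) had r over 0.7.

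**Figure D2:**
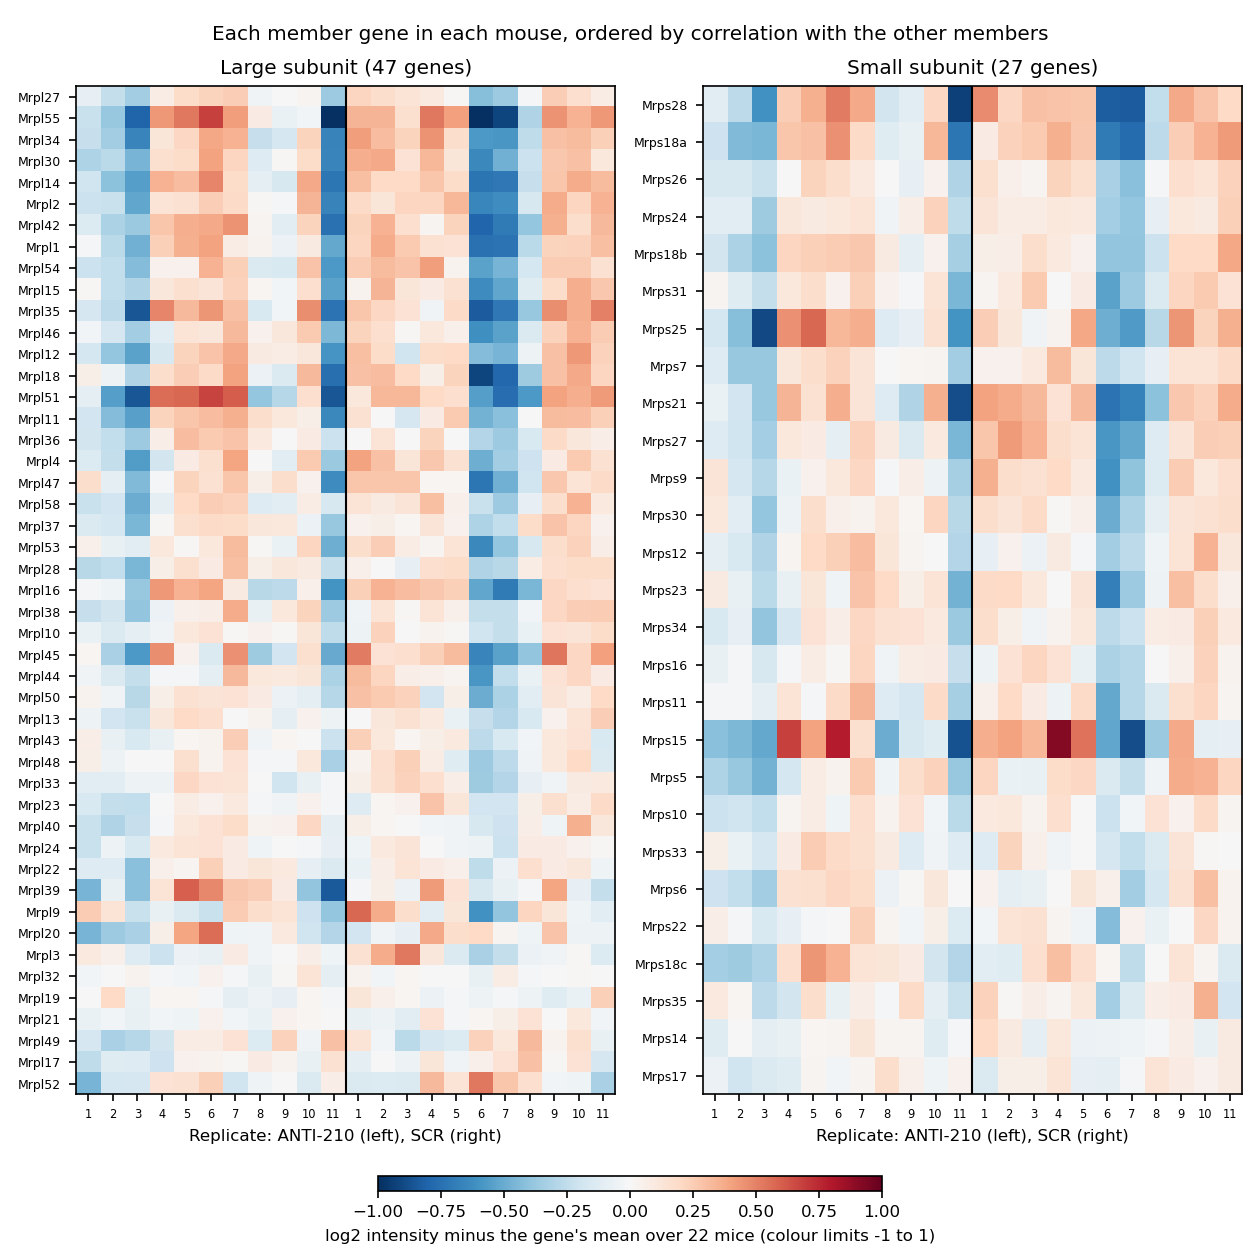
Log2 intensity of each gene minus its mean over 22 mice (colour, limited to -1 and 1), for 47 large subunit genes (left panel) and 27 small subunit genes (right panel), in ANTI-210 mice (left of the line) and SCR mice (right of it). Genes run from the highest r with the other members at the top to the lowest at the bottom; the columns of ANTI-210 3, ANTI-210 11, SCR 6 and SCR 7 are blue for most genes and not for those at the bottom.

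The genes differed in how far they moved. The highest mouse exceeded the lowest by 1.17-fold to 3.81-fold, with a median of 1.77-fold. Mrpl55, a mitochondria-specific gene of the large subunit, had the widest range, with a lowest, median and highest value of 9.13, 10.35 and 11.06 in ANTI-210 mice and of 9.19, 10.72 and 10.91 in SCR mice. Mrps15, whose product uS15m has a bacterial counterpart, moved 3.51-fold, lying at 8.59, 9.30 and 10.24 in ANTI-210 mice and at 8.57, 9.79 and 10.38 in SCR mice. In both genes the ranges of the groups nearly coincided, and only the medians lay apart. Mrpl51 (2.89-fold), Mrps25 (2.79-fold), Mrps28 (2.73-fold), Mrpl39 (2.71-fold), Mrpl35 (2.57-fold) and Mrpl18 (2.50-fold) came next in that order. The standard deviation over mice had a median of 0.23 in the large and 0.20 in the small subunit.

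A few genes stood outside the block. Mrpl52, a mitochondria-specific gene of the large subunit, ran weakly the other way (r = -0.23). It lay at 10.40, 10.82 and 11.10 (lowest, median, highest) in ANTI-210 mice and at 10.54, 10.84 and 11.39 in SCR mice, and its highest mouse was SCR 6, the mouse with the lowest mean of the 74 genes. Mrpl17 (r = -0.12), which encodes bL17m of the tunnel exit, lay between 11.37 and 11.78 in ANTI-210 mice and between 11.46 and 11.92 in SCR mice. Both were read by 1 probe only. Mrpl49 had r = -0.11 at its brightest probe, which lay between 9.06 and 9.68 in ANTI-210 mice and between 9.12 and 9.71 in SCR mice, but its 3 dimmer probes had r = 0.61, 0.77 and 0.84 with the mean of all 74 genes, so the probes of this gene disagree. In the small subunit the loosest genes were Mrps17 (r = 0.31), Mrps14 (r = 0.43, near the floor) and Mrps35 (r = 0.60). Mrps17 was nearly flat, at 11.50 to 11.88 in ANTI-210 mice and 11.56 to 11.84 in SCR mice.

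Between the treatments no gene of the mitochondrial ribosome passed the test. With limma at an unadjusted p under 0.05, 0 of 74 genes were higher and 0 were lower in ANTI-210 mice, where 3.47% of all 18524 genes were called (1.45% higher, 2.01% lower), and adjusted over all probes 0 of the 74 passed as well, where 0.0108% of all genes did. Differences, ANTI-210 minus SCR, ran from -0.19 in Mrpl34 to 0.06 in Mrps33. Of the 74 differences 66 were below 0 (42 of 47 large, 24 of 27 small), whereas 9663 of all 18524 genes were. The members move together from mouse to mouse, so these signs are not independent of each other. The median difference was -0.05 in each subunit and -0.0036 over all genes, and the median standard error of a gene was 0.09. By class, the median was -0.05 for large subunit genes with a bacterial counterpart, -0.06 for large mitochondria-specific genes, -0.05 for small subunit genes with a bacterial counterpart and -0.04 for small mitochondria-specific genes.

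The size of difference that the 11 mice per group leave possible was limited. For 69 of the 74 genes the 95% interval of the difference lay within 0.5 of 0, and for 46 within 0.3. The widest reached from -0.64 in Mrps15 and up to 0.40 in Mrpl55. In all 74 genes the values of the 2 groups overlapped. The share of all genes with such an overlap was not counted, so this is not a trait of these genes.

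**Figure D3:**
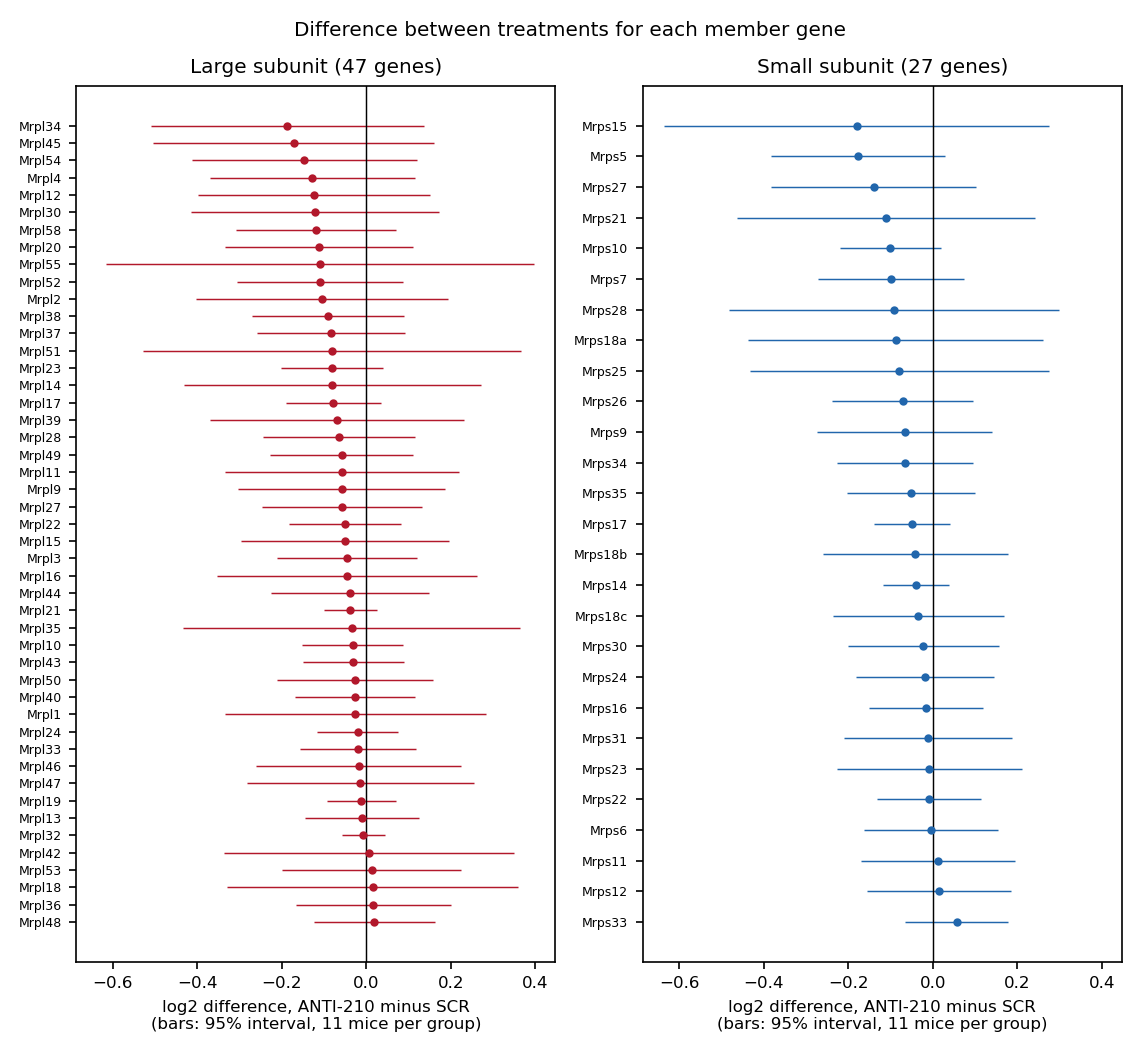
Difference on the log2 scale (ANTI-210 minus SCR) for every large subunit gene (left) and small subunit gene (right), with its 95% interval from limma over 11 mice per group. All 74 intervals include 0, and 66 of the points lie left of it.

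Mrps5 had the smallest p. It encodes uS5m, which has a bacterial counterpart near the entry of the messenger RNA. Its values were 8.51, 8.94 and 9.25 (lowest, median, highest) in ANTI-210 mice and 8.75, 9.17 and 9.36 in SCR mice, a difference of -0.18 (standard error 0.10, unadjusted p = 0.0870, adjusted p = 1 by limma). ANTI-210 mice 1, 2, 3, 4 and 11 lay lowest in their group, at 8.81 or below, and among SCR mice numbers 6 and 7 lay lowest, at 8.84 and 8.75, so the groups overlapped. Mrps10, which encodes uS10m, lay at 10.59, 10.83 and 11.02 in ANTI-210 mice and at 10.64, 10.90 and 11.05 in SCR mice. Its difference was -0.10 (standard error 0.06, unadjusted p = 0.0935 by limma). Leaving out 1 mouse brought one or both of these genes past the unadjusted threshold in 5 of 22 cases. The share of all genes called in these fits was not counted. Mrps10 passed without SCR 6 (p = 0.0280) and without ANTI-210 9 (p = 0.0474), Mrps5 without SCR 7 (p = 0.0452) and without ANTI-210 10 (p = 0.0457), and both without ANTI-210 7 (smaller p = 0.0410). With arrays weighted by their quality 11 genes were lower, against a background of 5.05% of all genes.

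The other differences were smaller relative to their errors. Mrpl34, whose product is the small protein bL34m, had the most negative difference of any member at -0.19 (standard error 0.16, p = 0.245), with values of 10.10, 10.60 and 11.16 in ANTI-210 mice and of 10.19, 11.01 and 11.22 in SCR mice. Mrpl45, near the floor, differed by -0.17 (standard error 0.16). Mrpl17 had the smallest p in the large subunit (p = 0.163), at a difference of -0.08. Mrps33 had the most positive difference at 0.06 (standard error 0.06, p = 0.350), lying at 12.17, 12.40 and 12.59 in ANTI-210 mice and at 12.09, 12.34 and 12.56 in SCR mice. Mrps12, which encodes uS12m of the decoding centre, differed by 0.02 (standard error 0.08), and Mrpl12, which encodes a protein of the stalk that recruits translation factors, by -0.12 (standard error 0.13, p = 0.359). Differences close to 0 were also found for the mitochondria-specific genes Mrpl48 (0.02), Mrpl53 (0.01) and Mrpl42 (0.01) and for Mrpl36 (0.02), which encodes bL36m. Mrpl23, which encodes uL23m of the tunnel exit, differed by -0.08 (standard error 0.06, p = 0.177). Among genes with bright probes, Mrps24, which encodes uS3m, lay at 12.49, 12.91 and 13.07 in ANTI-210 mice and at 12.46, 12.93 and 13.08 in SCR mice, and Mrpl33, which encodes bL33m, at 12.58, 12.73 and 12.99 in ANTI-210 mice and 12.43, 12.85 and 13.01 in SCR mice.

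Probes beyond the brightest were read for 29 of the genes. Of 51 such probes 37 lay above the floor, with a median r of 0.86 with the probe used, and the difference had the other sign at 6 of them. One probe of any kind had an unadjusted p under 0.05, a near-floor probe of Mrpl47 with a difference of -0.08 (p = 0.0239) and r = -0.07 with the probe used for that gene.

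The differences were also taken within 2 sets of replicate numbers. On the second principal component of all probes (7.31% of the variance) the 6 mice numbered 1 to 3 lay between -24.9 and -14.9, and the 16 mice numbered 4 to 11 lay at -6.06 or above. The labels name no batch, so the sets are known only from these values. Within numbers 1 to 3 (3 mice per group) 73 of the 74 differences were negative, with a median of -0.32 in the large and -0.28 in the small subunit. At an unadjusted p under 0.05 by limma 56 genes were lower, where 17.1% of all genes were. The smallest p of a member adjusted over all probes was 0.0161 by limma in this set. The share of all genes passing adjustment there was not counted. Within numbers 4 to 11 (8 mice per group) 56 of the 74 differences were positive, with medians of 0.05 and 0.06, and 0 genes were called, where 2.53% of all genes were. An exact permutation test of 3 mice against 3 cannot go below 0.1, and the difference between the sets was not tested. Marker lists moved beside these values. The list means, ANTI-210 minus SCR, differed within numbers 1 to 3 by 0.94 for macrophage, 1.07 for fibroblast and matrix, 0.70 for regenerating fibre and -0.05 for mature fibre markers, and within numbers 4 to 11 by 0.02, -0.06, -0.12 and 0.01 for the same lists. The mature fibre probes lay at the upper end of the values on the arrays, and whether fibre content differed was not tested. The part of these lists in the values of the mitochondrial ribosome genes was not tested. Mrps15 had the largest difference within numbers 1 to 3, -0.82. It lay at 9.04, 9.01 and 8.95 in ANTI-210 mice 1, 2 and 3, and at 9.82, 9.86 and 9.79 in SCR mice 1, 2 and 3. Mrpl34 lay at 10.54, 10.42 and 10.11 in these ANTI-210 mice and at 11.19, 11.08 and 10.99 in these SCR mice. Both genes were picked for their negative differences, so the lack of overlap in them follows from the choice. The share of all genes without overlap was not counted. Mrpl42 showed the largest opposite value within numbers 4 to 11, 0.21, against -0.52 within numbers 1 to 3. The 3 SCR mice of the first set all lay above the average mean of the mitochondrial ribosome genes, at 0.14, 0.15 and 0.10, and the ANTI-210 mice of that set below it, at -0.11, -0.19 and -0.34. In the second set low mice occurred in both groups, ANTI-210 11 with SCR 6 and SCR 7.

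**Figure D4:**
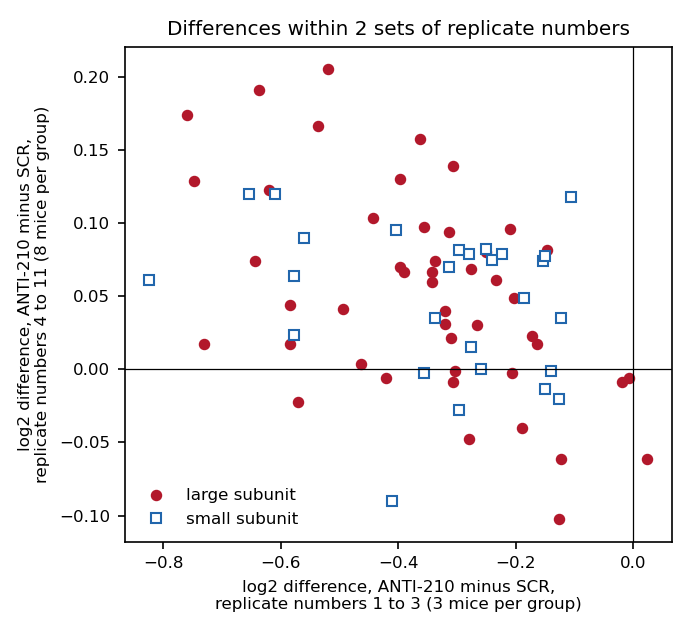
Difference on the log2 scale (ANTI-210 minus SCR) for every gene within replicate numbers 1 to 3 (horizontal, 3 mice per group) and within numbers 4 to 11 (vertical, 8 mice per group), for large (circles) and small (squares) subunit genes. Nearly all genes lie left of 0 on the horizontal axis, and 56 of 74 lie above 0 on the vertical one.

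The rest of the mitochondrial translation machinery moved with the ribosome. The per-mouse mean of 14 translation factors correlated with that of the 74 genes at r = 0.98 (rho 0.95, and r = 0.94 without the 4 lowest mice), and that of 16 measured of 17 mitochondrial aminoacyl-tRNA synthetases, which charge the tRNAs, at r = 0.98 (rho 0.95, and r = 0.94 without these mice). For assembly factors (15 measured of 20 listed symbols) r was 0.95 (rho 0.80, and r = 0.86 without the 4 lowest mice). Genes of ribosomal proteins and associated factors under other symbols were Dap3, Ptcd3, Chchd1, Gadd45gip1 and the membrane insertase Oxa1l (5 measured of 7 listed symbols). Their mean gave r = 0.91 (rho 0.73, and r = 0.74 without the 4 lowest mice). All of these are descriptions over the same 22 arrays. Past the unadjusted threshold between the treatments, 0 genes were called among the translation factors, the assembly factors and the genes under other symbols, and among the 16 synthetases Vars2 was lower (-0.14, p = 0.0378), where 2.01% of all genes were lower. A list of 16 genes of mitochondrial DNA transcription and biogenesis gave r = 0.87 (rho 0.74, and r = 0.69 without the 4 lowest mice). In it 2 were lower, the transcription factor gene Gabpa (-0.15, p = 0.0171) and Polrmt, the mitochondrial RNA polymerase (-0.11, p = 0.0460), beside the same 2.01% of all genes. These 3 had an adjusted p of 1 by limma.

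Respiratory complex I, most of whose subunits are nuclear encoded and which also holds subunits made on mitochondrial ribosomes, followed the 74 genes at r = 0.98 (rho 0.91, 35 genes, 0 called). Its list was taken by symbol (Nduf with a, b, c, s or v and a digit) and not by membership in the complex. The TCA cycle enzymes followed at r = 0.95 (rho 0.86, 15 genes measured of 16, 0 called). The ribosome of the cytosol ran opposite. The mean of 58 cytosolic ribosomal protein genes correlated with the mean of the mitochondrial ones at r = -0.93 (rho -0.85, and r = -0.78 without the 4 lowest mice), at -0.90 within numbers 1 to 3 and at -0.97 within numbers 4 to 11. One of these 58, Rpl41, was lower (-0.06, p = 0.0354), against 2.01% of all genes. The 2 kinds of ribosomal protein genes therefore moved apart: ANTI-210 11 had -0.37 for the mitochondrial and 0.30 for the cytosolic genes, and SCR 6 had -0.39 and 0.32.

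Markers of cell types varied beside the same block, in the opposite direction for macrophage, fibroblast and matrix, and regenerating fibre markers. For macrophage markers (7 measured of 9 listed symbols) the summed log2 level ran from 59.2 to 71.5 in ANTI-210 mice and from 54.3 to 72.4 in SCR mice. The list mean correlated with that of the mitochondrial ribosome genes at r = -0.93 (rho -0.88, and r = -0.83 without the 4 lowest mice). Itgam was near the floor, and 0 macrophage markers were called between the treatments. Fibroblast and matrix markers (7 genes, summed level 74.7 to 84.7 in ANTI-210 mice and 71.0 to 85.3 in SCR mice, Postn near the floor, 0 called) gave r = -0.91 (rho -0.86). Regenerating fibre and satellite cell markers (8 measured of 10 listed symbols, Pax7 and Myf5 near the floor, 0 called) gave r = -0.87 (rho -0.81). Their summed level was 65.5 to 80.4 in ANTI-210 mice and 63.8 to 80.6 in SCR mice. Mature fibre markers (11 measured of 12, summed level 162 to 166 in ANTI-210 mice and 163 to 166 in SCR mice, 0 near the floor and 0 called), which mark the labelled tissue, gave r = 0.84 (rho 0.73), falling to 0.45 without the 4 lowest mice. Their probe means, from 14.17 (Myh1) to 15.36 (Myl1), lay at the upper end of the values on the arrays. Whether a change in RNA still moves the intensity there was not tested, so their small spread does not show a steady fibre content. Endothelial markers (6 genes, summed level 51.3 to 54.2 in ANTI-210 mice and 50.5 to 53.2 in SCR mice, Kdr near the floor) gave r = 0.33 (rho 0.35), with no settled sign: r was 0.13 without the 2 farthest mice, -0.09 without the 4 lowest, -0.50 within numbers 1 to 3 and 0.71 within numbers 4 to 11. Of these 6 genes 3, Cdh5, Emcn and Tek, were higher in ANTI-210 mice at an unadjusted p under 0.05, where 1.45% of all genes were, and 0 after adjustment. The part of the cell composition in the values of the mitochondrial ribosome genes was not tested, and in whole muscle fewer cells of a type and less RNA per cell cannot be told apart. The mean of the 74 genes correlated with the first principal component of all probes at an absolute r of 0.96 (rho 0.83).

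**Figure D5:**
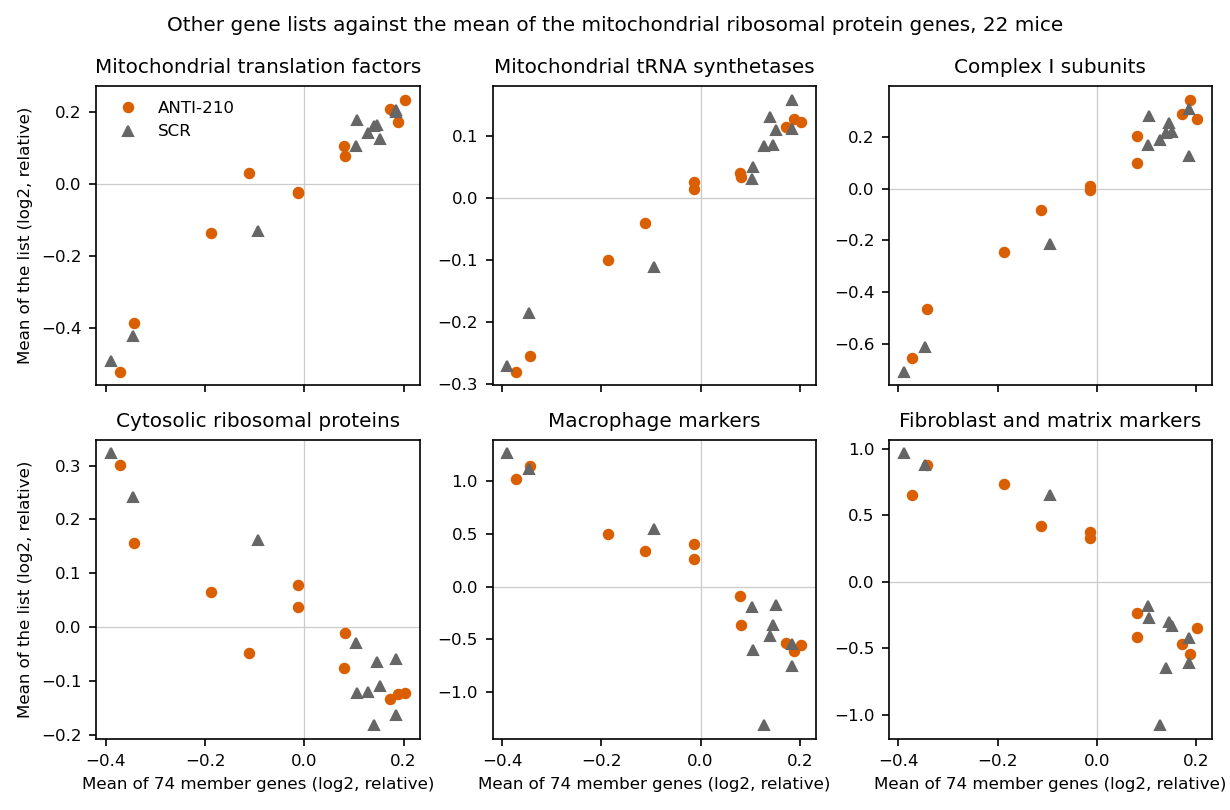
Per-mouse mean of 6 gene lists (vertical, log2 relative to each gene's mean) against the mean of the 74 mitochondrial ribosomal protein genes (horizontal, same scale) in ANTI-210 mice (circles) and SCR mice (triangles), 22 mice in all. Translation factors, tRNA synthetases and complex I rise along the axis (r = 0.98 each), and cytosolic ribosomal proteins (r = -0.93), macrophage markers (r = -0.93) and matrix markers (r = -0.91) fall.

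Promoters were read because the genes move together. NRF1, the ETS factor GABPA and YY1 are known to bind promoters of many nuclear genes for mitochondrial proteins. RefSeq windows of 300 bases (250 before the start and 50 after it, GRCm38.p6) were at hand for 65 of the 74 genes, and each was searched on both strands for exact words, with 17492 windows of protein-coding genes as the comparison. The YY1 word AAGATGGCG lay in 8 windows (12.3%, against 1.94% of the protein-coding windows), those of Mrpl35, Mrpl36, Mrpl37, Mrpl42, Mrps11, Mrps18a, Mrps24 and Mrps27. These 8 genes, 4 of each subunit, all had r over 0.7 with the other members, as did the genes of 51 of the 65 windows. In Mrpl36 (-31) and Mrps11 (-108) the YY1 word lay before the start, and in the others after it, from 11 in Mrps18a to 36 in Mrps24. The word holds the letters ATG, and whether the matches lie at translation starts was not tested. The ETS word CCGGAAGTG lay in 4 windows (6.15% against 2.77%), those of Mrpl3, Mrpl52, Mrps26 and Mrps27. The NRF1 word GCGCATGCG lay in 7 windows (10.8% against 2.41%), those of Mrpl9, Mrpl10, Mrpl17, Mrpl22, Mrpl32, Mrpl39 and Mrps18b, of which 3 belong to genes with r over 0.7 and 4 to the 14 others. At least one of these 3 words was in 18 windows (27.7% against 6.78%), and Mrps27 held both the ETS and the YY1 word. The CREB word TGACGTCA (3.08% against 2.34%) and the TATA word TATAAA (6.15% against 13.3%) were the others searched. No match of one word overlapped a match of another word in these windows. The NRF1 and YY1 words were set after longer forms of them had been counted, so their shares are not a test. The comparison windows were not limited to genes read in this muscle or matched for promoter type. A match is a description of letters.

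To show where the words lie, 70 bases before the start and 30 from it are given for 5 genes. All are on the plus strand, with the matched word in capitals. Mrps18a (YY1, chr17:46110934-46111033) and Mrps27 (ETS on the opposite strand and YY1, chr13:99344716-99344815) come from inside the block. Mrpl9 (NRF1, matched on both strands in overlapping positions, chr3:94443266-94443365) comes from its edge, and Mrpl52 (ETS on the opposite strand, chr14:54426839-54426938) from outside it. Mrpl27 (chr11:94653721-94653820) moved most closely with the others and has no exact match. Near matches were not searched.
Mrps18a: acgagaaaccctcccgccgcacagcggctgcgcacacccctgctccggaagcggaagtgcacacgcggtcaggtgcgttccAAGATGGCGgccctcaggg
Mrps27: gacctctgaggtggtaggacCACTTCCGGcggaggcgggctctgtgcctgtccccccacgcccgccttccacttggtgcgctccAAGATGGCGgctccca
Mrpl9: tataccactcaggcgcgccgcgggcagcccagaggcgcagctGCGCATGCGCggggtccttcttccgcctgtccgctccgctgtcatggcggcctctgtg
Mrpl52: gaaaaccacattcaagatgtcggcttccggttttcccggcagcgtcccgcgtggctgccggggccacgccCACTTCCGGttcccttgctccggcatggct
Mrpl27: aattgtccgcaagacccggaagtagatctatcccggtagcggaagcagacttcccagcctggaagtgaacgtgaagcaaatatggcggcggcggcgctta

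One pair of genes shared a promoter region across the subunits. The windows of Mrpl46 (large, minus strand, start at 78783089 on chromosome 7) and Mrps11 (small, plus strand, start at 78783131) share 141 bases, and the genes point away from each other. Over 22 mice they had r = 0.82, and their differences between the treatments were -0.02 for Mrpl46 and 0.01 for Mrps11.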

How the data were processed

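Total RNA of 1 gastrocnemius per mouse (200 ng) was labelled and hybridized to Illumina MouseWG-6 v2 BeadChips. The authors summarised beads in GenomeStudio, applied quantile normalization, and used beadarray to filter on expression and on probe quality. For these steps neither a version nor a filter threshold is stated in the sources. The values deposited by the authors, for 38563 probes, lie between 4.35 and 15.4 and were treated as log2, since the base is not stated in words. Symbols come from the platform annotation, and 32093 probes carry 1 symbol. Groups and replicate numbers come from the sample labels.

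Differences, ANTI-210 minus SCR, were fitted over all probes with limma 3.58.1 (lmFit, eBayes, two-sided) in R 4.3.3, with the unadjusted p threshold of 0.05 that the methods give and Benjamini-Hochberg adjustment over all probes. The means over a list are per mouse, of log2 values minus the gene's mean. Lists were counted by symbol, and some genes were listed under an old and a current symbol, such as Emr1 and Adgre1 or Tmem8c and Mymk. Ict1, listed as not measured among the genes under other symbols, is an old symbol of the member Mrpl58. Scripts were tested on simulated data. The number of arrays limits the precision.

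Named genes were those with an unadjusted p under 0.05, the 4 brightest and 4 most variable of each subunit, the 2 largest differences of each subunit in each direction and the 3 least correlated of each subunit. Mrpl14, Mrps21 and Mrps34 fell under this rule and are not described. Mrps10, Mrpl27, Mrpl12, Mrpl18, Mrpl47, Mrps18a, genes near the floor, genes with promoter matches and the pair Mrpl46 and Mrps11 were chosen after their values were seen. Promoter words for NRF1 and YY1 were set after longer forms of them had been counted. The genes and lists were chosen with earlier results of these data known. Alternatives were other normalizations, moderation, array weights, a filter on dim probes, the mean of all probes, a replicate block, sets of replicate numbers and leaving out each mouse. The detection p-values and the sequences of the oligonucleotides were not used here.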

Additional observations from a re-analysis of the deposited data

How the results depend on the processing

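Under the 10 alternatives other than leaving out a mouse, 0 of the 74 genes were higher in ANTI-210 mice. The count of lower genes, 0, became 11 with array weights (5.05% of all genes) and 56 within replicate numbers 1 to 3 (17.1% of all genes). It was between 0 and 2 when 1 mouse was left out, where the share of all genes was not counted. The causes were not tested. Within numbers 1 to 3 the median difference moved to -0.32 in the large and -0.28 in the small subunit, and within numbers 4 to 11 it was 0.05 and 0.06, with the sign turned in 48 genes. Within numbers 1 to 3 Mrpl18 (-0.36), Mrpl36 (-0.31), Mrpl42 (-0.52), Mrpl53 (-0.21) and Mrps11, positive over all mice, were lower past the threshold. Leaving out 1 mouse gave medians from -0.10 to -0.01 in the large and from -0.08 to -0.02 in the small subunit, and between 48 (without ANTI-210 11) and 72 negative differences, with 52 without ANTI-210 3. Other normalizations, moderation, the probe rule and the filter on dim probes, which kept 70 of the genes, left 0 genes called. With cyclic loess 62 differences were negative.

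Same-numbered mice did not pair: the correlation of their deviations from the group means ran from -0.76 to 0.76, over 0.1 in 4 of 11 pairs. With the replicate number as a block 0 of the 74 genes were called (smallest p = 0.0768), and 641 of all genes, against 642 without it. Genes near the floor (5 of 74) may miss small changes, although Mrpl45 among them moved 2.30-fold and had r = 0.85 with the other members.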

Other observations

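Among 8759 other genes with a mean of 6 or more, 911 had r over 0.9 and 821 had r under -0.9 with the per-mouse mean of the mitochondrial ribosome genes. The closest were Nudt6 (0.99), Flad1, 1700120C14Rik, Rangrf and Ss18l2 (0.98 each), over 22 mice. Farthest on the opposite side were Nasp, Tgfbi and Ss18 (-0.98 each) and Nap1l1 and Rhog (-0.97 each). Points of one mouse share an array, so these values describe the arrays.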
